A study of Mus musculus with 12 samples.

Results

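The region of mouse chromosome 17 around Vegfa was described by array comparative genomic hybridization, in which tumor DNA and normal DNA compete for the same probes and the ratio of their signals follows DNA copy number. Its members were the 285 probes of 42235 positioned probes that start between bases 38000000 and 53000000 of chromosome 17 (build mm8). The boundaries of this 15 Mb window were selected on log2 ratios of these same arrays, around an amplification of 1 post-hepatectomy tumor, so the ratios of its probes in each tumor are given as a description. The tests at the end compare the groups, with that tumor left out. Another 1443 probes lay on the rest of chromosome 17.

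Each of the 12 arrays compared the DNA of 1 liver tumor with DNA of non-tumor liver from the same animal, labelled with Cy5 and Cy3, respectively. All mice were Mdr2-KO mice of the FVB strain. They lack Mdr2 (Abcb4), the canalicular transporter that carries phospholipid into bile, and develop chronic liver inflammation followed by hepatocellular carcinoma. The post-PHx tumors (PHx1M to PHx6F, n = 6) came from 9-month-old mice that had undergone 70% partial hepatectomy (PHx) at 3 or 6 months of age, and the labels do not say which age applied to which mouse. The spontaneous tumors (Spon1M to Spon6F, n = 6) came from untreated mice of 13 to 14 months. The final letter of each name gives the sex. The groups therefore differed in age as well as in operation, and the effects of these cannot be told apart. One array was run per tumor, without a dye swap, and the arrays lay on 3 slides of 4. PHx1M to PHx4M shared the first slide, Spon1M to Spon4F shared the third, and PHx5M, PHx6F, Spon5F and Spon6F shared the second. Slide and sex were therefore also unbalanced between the groups, with more males among the post-PHx tumors and more females among the spontaneous ones. Their effects cannot be fully told apart from that of the group. Genomic DNA carries no marker of cell type, so the share of tumor cells in each sample was not checked here.

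Vegfa encodes vascular endothelial growth factor A, a secreted ligand that binds the receptor tyrosine kinases Flt1 and Kdr on endothelial cells and drives the growth and permeability of blood vessels. Its transcription rises under hypoxia through the factors Hif1a and Epas1. Amplification places extra copies of a chromosome segment in the tumor genome, and every gene on the segment is carried along. A ratio of DNA copies does not say whether any of these genes was transcribed more.

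The RefSeq annotation (GRCm38.p6) placed 2 microRNA genes inside the amplified regions described below. Mir693, on the plus strand, overlaps Xpo5, the gene of the exporter that carries microRNA precursors out of the nucleus. Mir6976, on the minus strand, overlaps Srf, the gene of serum response factor. Their mature RNAs are shown because they are the short regulatory RNAs of the segment, with the seed (bases 2 to 8), which pairs with target transcripts, in capitals. All 4 seeds differed.
mmu-miR-693-5p: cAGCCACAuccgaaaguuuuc
mmu-miR-693-3p: gCAGCUUUcagauguggcuguaa
mmu-miR-6976-5p: cAGGGAAGuugagaggaaaauug
mmu-miR-6976-3p: aUCUCCCUcccaacuccccag

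The 250 bases before the start of Vegfa (RefSeq, GRCm38.p6, chr17:46032378-46032627, minus strand) are shown because Vegfa names the region, with copies of the letters GGGCGG in capitals.
Vegfa: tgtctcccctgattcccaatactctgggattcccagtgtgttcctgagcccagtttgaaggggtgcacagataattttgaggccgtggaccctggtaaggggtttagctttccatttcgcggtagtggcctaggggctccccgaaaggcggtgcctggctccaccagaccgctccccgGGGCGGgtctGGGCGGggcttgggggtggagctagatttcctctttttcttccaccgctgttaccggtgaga
GGGCGG, the core of the Sp1 motif, occurred 2 times, beginning at positions -72 and -62 from the start. These letters, on either strand, were found in the same 250 bases of 32.7% of 32851 RefSeq promoters and of 44.4% of 198 promoters of genes of the amplified region. ACGTG, the core of the hypoxia response element, and TATAAA had no match in the 250 bases, on either strand. ACGTG was found in 16.6% and TATAAA in 12.4% of all the promoters, and in 22.2% and 7.07% of those of the amplified region. These counts cover only the 250 bases, so they say nothing of sites further away. Coordinates of this build differ from the mm8 coordinates used everywhere else in the text.

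The window held 137 gene names, of which 105 matched a RefSeq symbol, and 31 probes without a gene name. Probes lay 18.6 kb apart at the median. They ran from 39671905, in Pgk2, to 52989789, so no probe covered the window from 38000000 to 39671905. That part belongs to a stretch of 1759 kb without probes that began before the window, at 37912746. Between the probes of the window, the longest stretch without probes was 1291 kb, from 40488226 to 41779471. After removal of outlier spots, 278 to 285 window probes remained per array. No window spot was saturated, and 0 to 6 per array were not well above background. The spread between neighbouring probes was 0.15 to 0.26 in log2 units. Median signal over background was 7.07 to 25.9 in green and 3.80 to 11.9 in red, with the lowest values on the first slide.

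Ratios are given as log2 of tumor over liver, centred on the autosomal median of each array, so that 0 is the level of most of the genome. Over the window, PHx6F averaged 0.78, a fold-change of 1.71, and Spon6F averaged 0.77, a fold-change of 1.70. Of the other post-PHx tumors PHx5M was lowest at -0.056, followed by PHx4M at -0.010, and PHx3M, PHx2F and PHx1M lay at 0.016, 0.023 and 0.027. In the other spontaneous tumors it was 0.15 in Spon1M, -0.11 in Spon2M, -0.11 in Spon3F, -0.029 in Spon4F and 0.060 in Spon5F. PHx6F and Spon6F thus stood apart within their groups, and Spon1M came next. Both high tumors were from females and lay on the second slide, whose other tumors, PHx5M and Spon5F, had window means near 0. The part of the slide in the result was not tested.

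**Figure D1:**
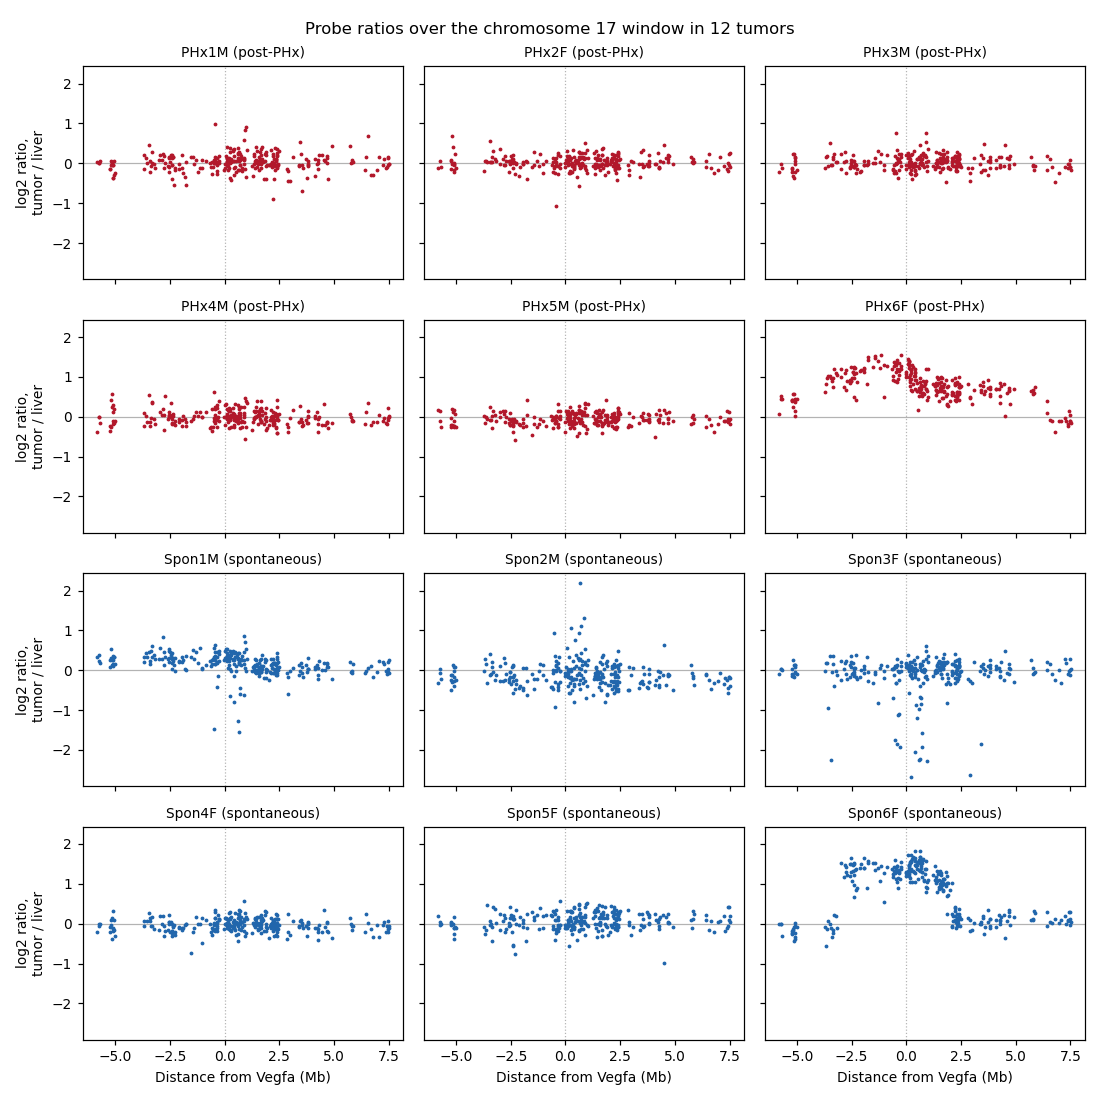
Log2 ratio of tumor over liver (vertical axis) for each probe of the window, by distance from Vegfa in Mb (horizontal axis), in 1 panel per tumor. The probes of PHx6F and Spon6F form raised blocks of different length, those of Spon1M lie slightly above 0 in the left part, and Spon3F holds scattered single probes below -1.5.

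Window probes at a log2 ratio of at least 0.4 (1.32-fold) numbered 255 of 285 in PHx6F, against 1.88% of all its probes on the autosomes and X, and 169 of 283 in Spon6F, against 1.54%. Spon1M had 37 of 285 such probes, which is 13.0% of the window against 7.39% of its whole array. Among the other post-PHx tumors, PHx1M had 12 of 278 (whole array 3.7%), PHx2F had 5 of 278 (3.7%), PHx3M had 7 of 278 (6.25%), PHx4M had 8 of 282 (7%) and PHx5M had 2 of 282 (1.48%). In the other spontaneous tumors they were 13 of 285 in Spon2M (11.8%), 5 of 284 in Spon3F (1.73%), 1 of 282 in Spon4F (4.09%) and 17 of 284 in Spon5F (3.9%). Outside PHx6F, Spon6F and Spon1M, the window therefore held between 0.355% and 5.99% of probes at that level, near or below the share of the whole array in most tumors.

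Regions were called in each array as runs of at least 2 neighbouring probes with a fitted level of at least 0.4 in either direction. By this definition 267 of 285 window probes lay in amplified regions in PHx6F, against 1.14% of all its probes. In Spon6F 168 of 283 did, against 0.645%. None of the window probes lay in an amplified region in the other 10 tumors, where 1.92% of all probe and tumor pairs did. Since the window was drawn on such calls, nothing is read from these shares.

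In PHx6F the amplification rose from the proximal side in 2 steps. Up to 37817879 the chromosome averaged -0.095. The next probe, in the olfactory receptor gene Olfr137 at 37912688 and just outside the window, had a log2 ratio of 0.61, and the first probe inside the window, in Pgk2, had 0.064. From Crisp1 at 39758556 to 40402178 the mean was 0.41 ± 0.15 (SD, 13 probes), or 1.33-fold over 0.644 Mb. This low stretch was not called as a region at score thresholds of 8 and 10, with a limit of 0.6 or with equal probe weights. The best single position for this first rise lay between 37817879 and 37912688, which is outside the window, so its proximal end is known only to within the sparse probes there. The single Pgk2 probe went against it.

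The main region of PHx6F began at 40416263, in Mmut, the gene of methylmalonyl-CoA mutase (Mut in the array design), and ended at 51350221. It spanned 10.9 Mb with 254 probes and a mean of 0.85 ± 0.29 (SD), a fold-change of 1.81. A fit of 2 levels put the second rise further in, between 41779521 and 41822137, and positions back to 40488226 could not be distinguished because of the stretch without probes. At the distal end the level fell by 0.76, and from 52033397 on the chromosome averaged -0.12. This edge lay between 51350221 and 52033397, a distance of 683 kb. Satb1, which encodes a chromatin organizer, was the last RefSeq gene with a probe inside, at 0.62. Within the interval of the edge, 2 probes from 51909895 to 51926659 averaged 0.25. Kcnh8, a potassium channel gene, was beyond the edge at -0.25, but was also low in the tumors other than PHx6F and Spon6F, with a median of -0.21.

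Within that region PHx6F was not flat. The segment from 40416263 to 43090074 averaged 0.93 over 32 probes. The highest segment, from 43100812 to 45894664, averaged 1.15 over 76 probes, or 2.22-fold, and included Vegfa. After 4 probes at 0.85, the segment from 45971130 to 51350221 averaged 0.67 over 142 probes, or 1.60-fold. The step down lay between neighbouring probes at 45894664 and 45894893, both within Crip3, a gene of a cysteine-rich LIM protein, and measured -0.47 ± 0.029 (SE over probes). The interval for this position was 0.228 kb under a model with 2 levels and equal noise.

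In Spon6F the amplification was shorter and higher. It ran from 42512511 to 47553980, 5.04 Mb with 168 probes, and lay wholly inside the main region of PHx6F. The mean was 1.27 ± 0.26 (SD), a fold-change of 2.41. The proximal edge lay in the 208 kb between Cd2ap, which encodes an adaptor of the actin cytoskeleton, and Tnfrsf21, which encodes death receptor 6. Cd2ap was at 0.040 and Tnfrsf21 at 1.51. The distal edge lay in 29.3 kb beyond 1700067P10Rik, where the level fell by 0.93. The chromosome on either side averaged -0.072 and 0.095.

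Spon6F also stepped down inside its region. The first 122 probes, from 42512511 to 46374054, averaged 1.36, or 2.57-fold. The last 46 probes, from 46378714 to 47553980, averaged 1.03, or 2.04-fold. The step lay in Prph2, a photoreceptor disc protein gene, within 4.66 kb, and measured -0.33 ± 0.038 (SE over probes). It was lost at score thresholds of 8 and 10, where the region was a single piece. The high stretch of Spon6F thus reached further distally than that of PHx6F, and none of the edges of these tumors fell at a shared position.

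Spon1M showed a low gain under the 0.4 limit. From Pgk2 at 39671905 to Spats1 at 44931910 its 75 probes averaged 0.29 ± 0.15 (SD), or 1.22-fold, and the 53 probes just before averaged 0.021. Its proximal edge lay in the stretch with few probes before Pgk2. Its distal edge depended on the fit. Least squares placed it in Crip3, at the same probe pair as the inner step of PHx6F, with an interval from 45848300 to 45910086. Least absolute deviations placed it in Ubr2, between 46393566 and 46420348. Without probes below -0.4 it lay between 46496327 and 46725919. These 2 fits were added after single low probes had been seen in Spon1M, and all edges of PHx6F and Spon6F stayed in place under them. With a limit of 0.25 in place of 0.4, Spon1M was also called as amplified.

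**Figure D2:**
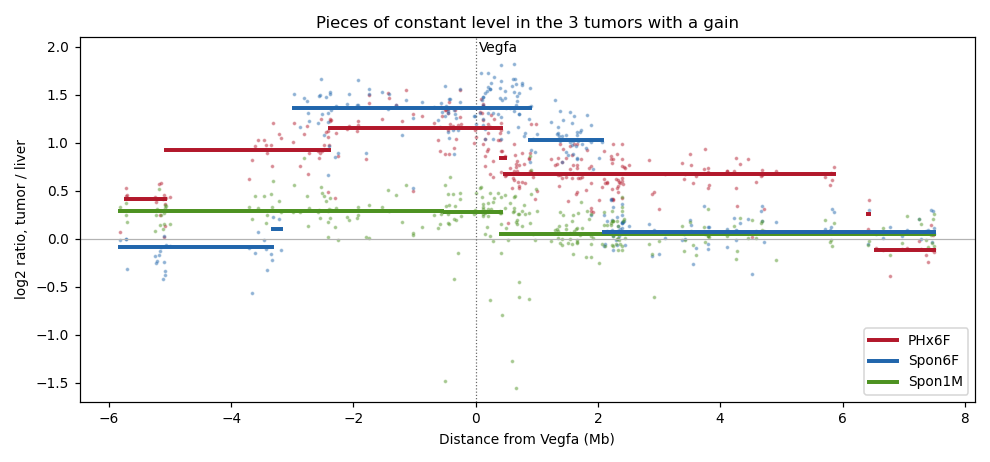
Mean log2 ratio of tumor over liver of each segment (lines) and of each probe (points) in PHx6F, Spon6F and Spon1M by distance from Vegfa in Mb. PHx6F shows the longest raised block with its highest segment in the middle, Spon6F a shorter and higher block inside it, and Spon1M a low plateau.

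**Figure D3:**
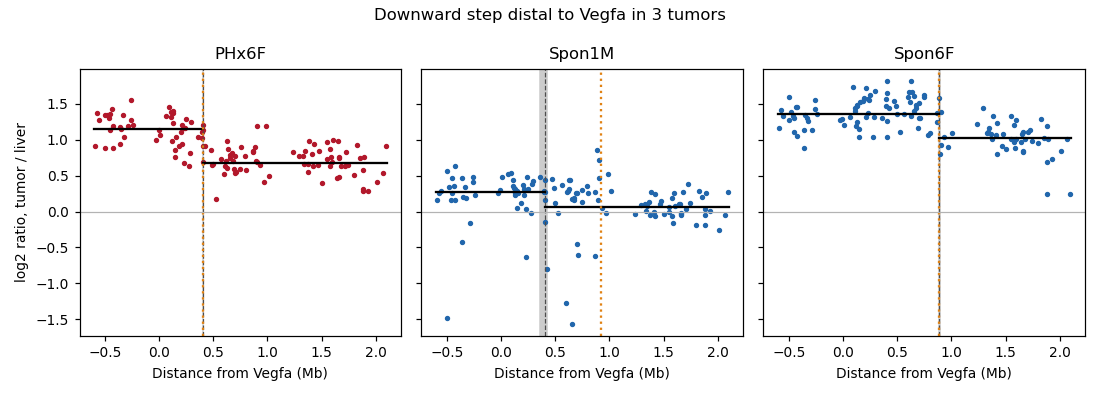
Probe log2 ratios (points) around the inner steps of PHx6F and Spon6F and the distal edge of Spon1M, by distance from Vegfa in Mb. The dashed line marks the least-squares split, grey shading the interval for the split, black lines the means on either side, and the dotted orange line the split by least absolute deviations, which moved away in Spon1M but not in the other tumors.

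Across the step in Crip3, the probes up to 47553980 were set against those of the 2 Mb before it. The difference of distal minus proximal means was -0.45 in PHx6F, -0.18 in Spon6F and -0.17 in Spon1M. It was between -0.011 and 0.096 in the other 9 tumors, so the probes on either side were level where no gain was present. The step of Spon6F in Prph2 lies among these distal probes.

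The stretches set by these edges were compared over all tumors. In the core shared by both regions, from 42512511 to 45894664 (3.38 Mb), PHx6F averaged 1.12 ± 0.025 (SE over 93 probes) and Spon6F 1.34 ± 0.024. Spon1M averaged 0.26 ± 0.028 there. The other 9 tumors lay between -0.14 and 0.038. All 93 core probes were at 0.4 or above in PHx6F, as were all those measured in Spon6F, whereas Spon1M had 24 of 93 at that level and 87 above 0.

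In the shared stretch distal to Crip3, from 45894893 to 47553980, PHx6F averaged 0.71 and Spon6F 1.18, and the remaining tumors lay between -0.17 and 0.095. Spon6F was above PHx6F in both shared stretches, and the distance was wider in the distal one. With the normexp background correction the core means were 1.105 in PHx6F and 1.203 in Spon6F, in the same order. Outside the region of Spon6F, PHx6F was raised on both sides and Spon1M on the proximal side. From 41779471 to 42490665 its 13 probes averaged 0.95, against 0.35 in Spon1M and -0.10 in Spon6F. From 47583254 to 51350221 its 70 probes averaged 0.65, against 0.096 in Spon6F and -0.17 to 0.085 in the others. In the low first step, from 39758556 to 40488226, PHx6F averaged 0.39, Spon1M 0.25 and Spon6F -0.18.

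**Figure D4:**
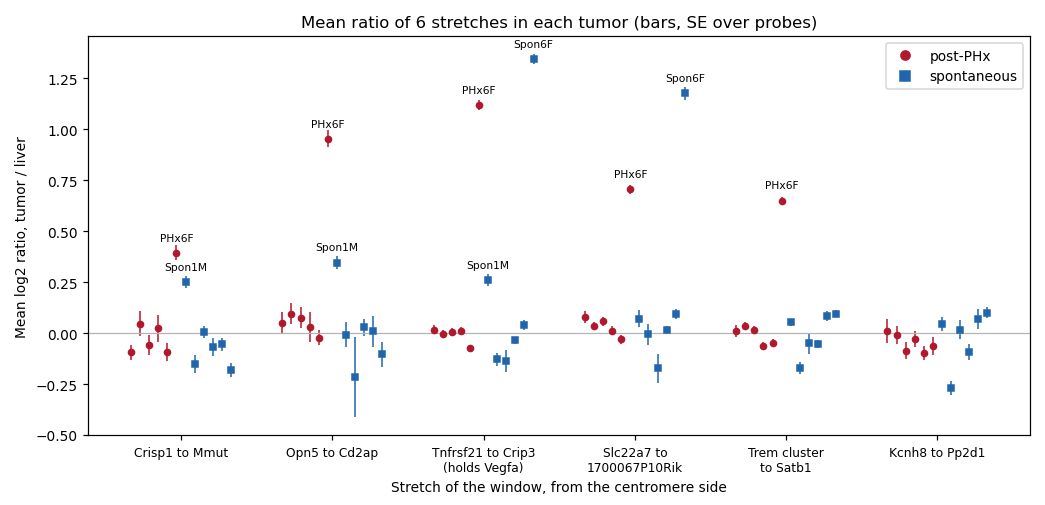
Mean log2 ratio of tumor over liver in each of 6 stretches of the window for every tumor, with bars for the SE over probes. PHx6F is raised in every stretch but the last, Spon6F in the shared core (1.34) and the shared distal stretch (1.18), and Spon1M in the first 3, while the other tumors lie near 0.

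The raised ratios came from the tumor channel. In the core, the red signal of tumor DNA was shifted, relative to the median of the arrays other than PHx6F and Spon6F, by 1.09 in PHx6F, 1.33 in Spon6F and 0.30 in Spon1M, and by -0.20 to 0.077 in the other tumors. The green signal of liver DNA was shifted by -0.060 to 0.067 in all 12. The 5 window probes with repeated spots had SDs over 2 or 3 spots from 0.028 to 0.14 in PHx6F and Spon6F. The lowest was that of a probe of Mmut in PHx6F, at 0.37 ± 0.028, and the highest that of a probe of 4921523A10Rik in Spon6F, at 0.054 ± 0.14.

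**Figure D5:**
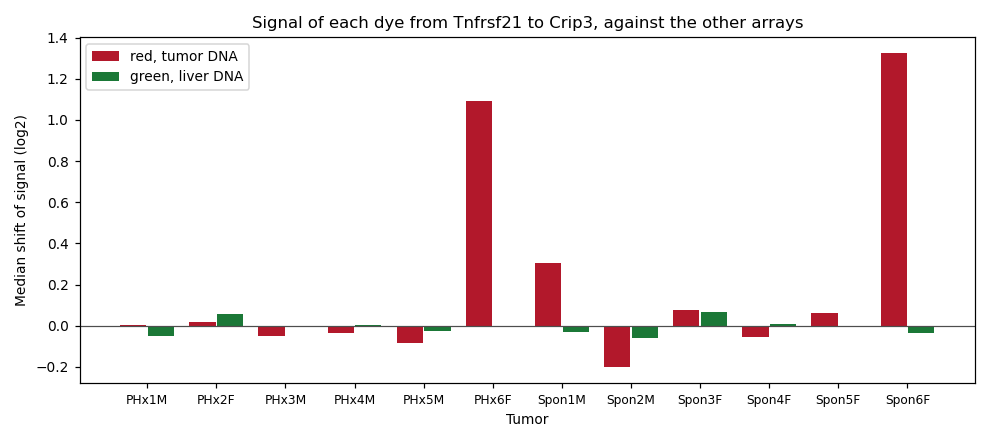
Shift of the red (tumor) and green (liver) signal in the shared core, in log2 units relative to the median of the arrays other than PHx6F and Spon6F, as bars from 0 for each tumor. The red bars of PHx6F (1.09), Spon6F (1.33) and Spon1M (0.30) stand out, and all green bars lie within 0.067 of 0.

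Vegfa was covered by 2 probes, at 45480695 to 45480754 and at 45491734 to 45491793. In PHx6F they measured 1.13 and 1.06, a mean of 1.095 ± 0.048 (SD over probes) or 2.14-fold. In Spon6F they measured 1.28 and 1.20, a mean of 1.24 ± 0.060 or 2.36-fold. In Spon1M they measured 0.30 and 0.47, a mean of 0.39 ± 0.12 or 1.31-fold. Both probes thus placed these tumors above the rest. Of the remaining post-PHx tumors PHx1M had the lowest Vegfa mean, -0.064, and PHx3M the highest, 0.042, with PHx2F at -0.0048, PHx5M at 0.0080 and PHx4M at 0.039. The remaining spontaneous tumors were at -0.037 in Spon2M, 0.18 in Spon3F, 0.064 in Spon4F and -0.10 in Spon5F. With another background correction (normexp) Vegfa was 1.14 in PHx6F and 1.08 in Spon6F, so the order of these tumors turned, and which carried the higher Vegfa ratio is not settled.

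Vegfa was not at the top of its own segment. Among the 44 genes whose probes all lay in the core it ranked 27 in PHx6F and 32 in Spon6F by mean ratio. Among the 58 genes of the gain of Spon1M it ranked 15. Genes with 1 or 2 probes have ratios uncertain by about the spread between neighbouring probes, so ranks within a segment of near constant level are a description.

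Among genes with at least 3 probes, the highest of the PHx6F region were Runx2 at 1.36, a transcription factor of bone formation, Mad2l1bp at 1.34, which silences the spindle checkpoint, and BC043643 at 1.34. The lowest were Trem2 at 0.55, a lipid-sensing receptor of macrophages, its family member Treml4 at 0.55, and Foxp4 at 0.54, a forkhead transcription factor. In Spon6F the highest were Crip3 at 1.58, Xpo5 at 1.54 and Mep1a at 1.48, the latter encoding the metalloprotease meprin alpha. The lowest in Spon6F were Usp49 at 1.05, a deubiquitinase, Ccnd3 at 1.04 and Foxp4 at 0.83. The lowest genes of both tumors came from the distal segments described above.

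By RefSeq gene order, the main region of PHx6F held 117 protein-coding genes from Mmut to Satb1, of which 94 had a probe. The region of Spon6F held 88, from Tnfrsf21 to 1700067P10Rik, of which 70 had a probe. The core held 45, from Tnfrsf21 to Crip3, of which 38 had a probe. Mir693 lay in all 3, and Mir6976 lay in both regions but not in the core. Of the gene names whose probes all lay in the main region of PHx6F, 121 of 124 were at 0.4 or above. The lowest value was 0.17 in Srf, the median 0.79 and the highest value 1.42 in Slc29a1. Srf had 1 probe, which was below 0 in all tumors other than PHx6F and Spon6F. Mmut and AK136482, whose probes lay on both sides of an edge of that region, averaged 0.31 and 0.059. In the Spon6F region, counted in the same way, 88 of 89 were at that level, from Tdrd6 at 0.82 over a median of 1.28 to Mrpl2 at 1.82. The remaining name, AK021406, had no value in Spon6F. In Spon1M 12 of 58 genes of its gain reached 0.4, with a median of 0.28.

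Genes were then grouped by function, in lists whose members were chosen by their place in the window. Over all 137 gene names of the window, 126 were at 0.4 or above in PHx6F, 89 in Spon6F and 17 in Spon1M, and 0 to 7 in each of the other tumors. Medians over the whole window were 0.76 in PHx6F and 1.08 in Spon6F. Because neighbouring genes lie on the same segment, each list mainly follows the positions of its members.

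For signalling genes, 10 of 12 reached 0.4 in PHx6F, 6 in Spon6F and 1 in Spon1M, with medians of 0.76 in PHx6F and 0.61 in Spon6F. Besides Vegfa they included Rcan2, a calcineurin inhibitor, at 1.16 in PHx6F and 1.45 in Spon6F. Ptk7, a pseudokinase of planar cell polarity, was at 0.63 and 1.48. Daam2, a formin-like protein of Wnt signalling that lies beyond the distal edge of Spon6F, was at 0.82 and 0.17.

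For cell cycle and genome maintenance, 8 of 9 genes reached 0.4 in PHx6F and 8 in Spon6F, with medians of 0.74 and 1.42. Ccnd3, which encodes the G1 cyclin D3, was at 0.68 in PHx6F and 1.04 in Spon6F, and at -0.011 in Spon1M. Its values in the remaining tumors ran from -0.23 in Spon2M to 0.12 in Spon5F. Cul7, a cullin scaffold of ubiquitin ligases, was at 0.74 in PHx6F and 1.49 in Spon6F. Polh, the polymerase that copies past ultraviolet lesions, was at 1.04 and 1.52. Cenpq, a kinetochore gene proximal to both main steps, was at 0.23 and -0.11.

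For hepatocyte metabolism and transport, 11 of 12 genes reached 0.4 in PHx6F, 11 in Spon6F and 3 in Spon1M, with medians of 1.02 in PHx6F and 1.34 in Spon6F. Cyp39a1, an oxysterol hydroxylase of bile acid synthesis, was at 0.76 in PHx6F and 1.12 in Spon6F. Gnmt, the glycine N-methyltransferase abundant in liver, was at 0.53 and 1.30. Slc29a1, a nucleoside transporter, was at 1.42 and 1.45, and Slc22a7, an organic anion transporter, at 0.91 and 1.04. Mmut, at the proximal end, was at 0.31 and -0.26.

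For RNA and protein synthesis and folding, all 12 genes reached 0.4 in both PHx6F and Spon6F, with medians of 0.94 and 1.32. Hsp90ab1, which encodes the chaperone HSP90 beta, was at 1.13 in PHx6F, 1.11 in Spon6F and 0.26 in Spon1M. Its only probe was also at 0.98 in PHx1M, 0.75 in PHx3M and -1.07 in PHx2F, which had no called region in the window. In the remaining tumors it was between -0.24 and 0.22, so this probe does not follow the segment alone. Xpo5 was at 1.04 in PHx6F, 1.54 in Spon6F and 0.26 in Spon1M. Mrpl2, a mitochondrial ribosomal protein gene, was at 0.98, 1.82 and 0.32.

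For transcription, 10 of 11 genes reached 0.4 in PHx6F and 8 in Spon6F, with medians of 0.71 and 0.995. Runx2 was at 1.36 and 1.33. Srf was the exception in PHx6F, at 0.17 against 1.11 in Spon6F. Its only probe was also low in the other 10 tumors, from -0.49 to -0.016 with a median of -0.22. This probe therefore does not follow the segment alone, and its value is not read as a lack of gain. Nfya, a subunit of the CCAAT-binding factor, lay in the stretch raised in PHx6F alone, at 0.71 and 0.13.

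For innate immunity, 8 of 8 genes reached 0.4 in PHx6F and 2 in Spon6F, with medians of 0.61 and 0.15. The cluster of Trem receptors of myeloid cells lay just beyond the distal edge of Spon6F. Trem1 was at 0.81 in PHx6F and 0.24 in Spon6F, and Trem2 at 0.55 and 0.10. Nfkbie, an inhibitor of NF-kB inside the core, was at 1.30 and 1.33. Of the reproduction and red cell genes, at the proximal end, 4 of 5 reached 0.4 in PHx6F and 0 in Spon6F, with medians of 0.49 and -0.15. Rhag, the Rh-associated glycoprotein of red cells, was at 0.49 in PHx6F, -0.20 in Spon6F and 0.41 in Spon1M. Of the adhesion receptors of the Adgrf family, 3 of 3 reached 0.4 in PHx6F and 2 in Spon6F. Adgrf5 was at 0.88 and 1.346, and Adgrf2, on the proximal side of the Spon6F edge, at 1.21 and 0.23.

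Other ligands, receptors and regulators of the VEGF pathway lie elsewhere in the genome, and 12 of them had probes. In PHx6F these ran from -0.23 in Epas1 to 0.11 in Vhl, and in Spon6F from -0.30 in Hif1a to 0.21 in Vhl. None thus reached 0.4 in either direction in the tumors with amplified Vegfa. Of all probes, 1.88% in PHx6F and 1.54% in Spon6F were at 0.4 or above, so nothing is read from this count. The receptors Flt1, Kdr and Flt4 and the coreceptors Nrp1 and Nrp2 did not reach 0.4 in either direction in any of the 12 tumors. Exceptions in other tumors were Figf (the ligand VEGF-D) at 0.72 in PHx4M and Hif1a at 0.49 in Spon2M, 0.44 in Spon4F and -0.91 in Spon5F. Of all probes, 7% in PHx4M, 11.8% in Spon2M and 4.09% in Spon4F were at 0.4 or above. Kdr, Vhl and Pgf had 1 probe each. Pgf, placental growth factor, was at -0.46 in PHx3M and -0.43 in Spon3F, and Epas1 was at -0.42 in Spon2M.

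Spon3F carried 2 called deletions in the window, from 45124263 to 45196641 (5 probes, -0.89 ± 0.76 SD) and from 45983794 to 46236479 (18 probes, -0.71 ± 0.82). They held 23 of its 284 window probes, against 2.13% of all its probes in deleted regions. The large SD came from scattered single probes. In Spon3F 13 window probes lay at -1.5 or below, with a median of -2.06, among them probes of Opn5, Aars2, Slc29a1, Ptk7 and Pex6, while the segments between the low probes and the called deletions had means of -0.10 to 0.14. At these probes the red tumor signal was shifted by -1.92 and the green signal by 0.17. In Spon1M, on the same slide, 2 of the 13 lay below -1, including Aars2 at -1.48, and in Spon2M, also on that slide, 4 lay at 0.5 or above. What made single probes low was not tested.

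The design also asks whether post-PHx and spontaneous tumors differed over this window. PHx6F, around which the window was drawn, was left out of this comparison as planned. The window mean was then 0.12 lower in the 5 other post-PHx tumors than in the 6 spontaneous tumors (-0.12), with p = 0.65 by an exact two-sided permutation test over tumors. The SD over tumors was 0.034 in the post-PHx and 0.33 in the spontaneous group. Spon6F, which carries a gain of the same segment, was among the latter. The amplified tumor was thus left out of the post-PHx group only. The size and sign of the difference follow from that choice, so this test cannot decide whether the groups differ. With Spon6F left out as well, because of its window value, the difference was 0.0084, which is given as a value with no test.

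The same comparison, with the same limit inside the window, was made for bins of 1 Mb with limma across the genome. Without PHx6F, 0 of 14 window bins passed an adjusted p of 0.05 (Benjamini-Hochberg over 2138 bins), against 0% of all bins, and 0 window bins had an unadjusted p under 0.05. Genome-wide 0 bins passed, with 108 at an unadjusted p under 0.05. With 1 amplified tumor in each group of 6, a share of tumors carrying the gain cannot be told apart between the groups.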

How the data were processed

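The authors hybridized tumor DNA (Cy5) against matched liver DNA (Cy3) on Agilent mouse CGH arrays, with designs on build mm8, after digestion with AluI and RsaI, and deposited the scanner output of Agilent Feature Extraction 10.5.1.1. Its log10 ratio per spot, as deposited by the authors, is background-subtracted and dye-normalized. The deposited intensity columns (processed, mean and background signals of both channels) were used for channel shifts and for the normexp alternative, and other deposited columns hold spot flags. The authors called aberrations with ADM-2 of CGH Analytics, and those calls were not used.

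Log10 ratios were multiplied by 3.32, control and outlier spots were removed, spots of a probe were averaged and arrays were centred on the autosomal median. Regions were found with a score for intervals weighted by probe error, modelled on ADM-2 (threshold 6, at least 2 probes, level at least 0.4). Edges were placed by least squares with 2 levels, with an interval from the profile of that fit. A gene's value is the mean of its probes. Group comparisons used an exact permutation test over tumors and limma (lmFit and eBayes) on bins of 1 Mb with at least 3 probes. The limma step and the region caller were tested on simulated data. Software was Python 3.11.15, numpy 2.4.6, scipy 1.17.1, pandas 2.3.3, numba 0.67.0, R 4.3.3 and limma 3.58.1.

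The labels give 1 array per tumor, so no technical replicate exists, SE values over probes cover probe spread within an array, and the number of arrays limits the precision. The window, gene lists and edges were chosen with earlier results of these data known. Genes were named if they were Vegfa, in a list, at an edge of a region, in the VEGF pathway list, or among the 3 highest or lowest genes with at least 3 probes in a region, and named genes also include the lowest and highest gene of each region. Names came from the files, with older symbols updated through RefSeq tables. Alternatives were normexp background correction (offset 50), other score thresholds, filters and probe weights, wider bins, leaving out each tumor, and the replicate number as a block. For the bins, sex as a covariate and slide as a random block were also used.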

Additional observations from a re-analysis of the deposited data

Results flagged for a closer look

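Within the 6 post-PHx tumors, PHx6F lay far from its nearest neighbour, relative to the range of the group, in the window mean (0.78), in Vegfa (1.095), in the low first step (0.39), in the proximal stretch raised in PHx6F alone (0.95), in the shared core (1.12), in the shared distal stretch (0.71) and in the distal stretch raised in PHx6F alone (0.65). The nearest other post-PHx tumor was at 0.027, 0.042, 0.046, 0.096, 0.017, 0.079 and 0.034, respectively.

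Within the 6 spontaneous tumors, Spon6F stood apart in the same way in the window mean (0.77), in Vegfa (1.24), in the shared core (1.34) and in the shared distal stretch (1.18). The nearest was at 0.15, 0.39, 0.26 and 0.095, respectively, and in the first 3 of these it was Spon1M. These measures overlap, so they are not separate events, and the window was chosen on ratios of this kind. The stretches were also drawn on the edges of these tumors, so a rate of chance for being singled out does not apply here.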

How the results depend on the processing

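The difference in window mean of post-PHx minus spontaneous tumors (-0.12 without PHx6F) depended on which tumors entered. It turned to 0.0081 with all 12 tumors and to 0.0084 without PHx6F and Spon6F, which is also the value without spontaneous replicate 6. Leaving out 1 tumor at a time gave -0.17 to 0.0084. On the only slide with both groups it was -0.47, with 1 post-PHx tumor. With the replicate number as a block it was 0.0084 as well, since the block leaves Spon6F without a partner. The groups came from different mice, so the numbers do not pair the samples, and the block moved no count of bins. Deviations of tumors with the same number correlated from -0.027 to 0.58, highest between PHx6F and Spon6F. The other settings kept its direction. The count of tumors with an amplified region was 2, and 3 with a limit of 0.25 or with equal probe weights. The third tumor was Spon1M, but these settings called different parts of it. The largest call was the low plateau from 39671905 to 44931910 with the limit of 0.25. With equal weights it was 5 probes from 46354785 to 46393566, at 0.49. The mean of the largest region ranged from 0.82 to 0.86 in PHx6F and from 1.14 to 1.28 in Spon6F, lowest with normexp. With normexp the largest region of PHx6F began at 39758556 and held 268 probes, so it took in the low first step. Counted from Crisp1 to Satb1, it would hold 130 protein-coding genes, of which 99 had a probe. The number of segments ranged up to 7 in PHx6F and from 1 to 4 in Spon6F. Limma made 0 calls under every alternative. The causes of these shifts were not tested, apart from the tumors left out. Edges cannot be placed within the 1291 kb without probes, nor within the 1759 kb without probes before Pgk2. Red signal over background was 3.80 to 7.03 on the first slide, which held the lowest value, and Spon6F of the second slide lay within that range at 5.31. The spread between neighbouring probes on the first slide, 0.16 to 0.19, lay within the range of the other slides.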

Other observations

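Residual probe deviations inside the window, after subtraction of the fitted segment level, were correlated between PHx6F and Spon6F (r = 0.53) and between each of them and Spon5F of the same slide (0.58 and 0.55). PHx5M, the remaining tumor of that slide, had lower values with PHx6F (0.23), Spon6F (0.21) and Spon5F (0.22). Over 18 pairs of tumors on the same slide r ran from 0.0062 to 0.59 with a median of 0.42, and over 48 pairs on different slides from -0.19 to 0.49 with a median of 0.25. These are correlations over probes, which share their sequence and design between arrays, and are given as a description.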
